A study of Mus musculus with 9 samples.

Results

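The baseline state of cultured mouse neural stem cells was described from the 5 untransduced cultures of the series, which are 5 of its 9 RNA-seq libraries. The members were chosen by their labels alone: every sample titled Smchd1 fl/fl, named here fl/fl 1, 2, 3, 5 and 7 after the line numbers in the titles. All 25965 rows of the deposited expression table were used. Each line came from a C57BL/6 embryo at E14.5 (embryonic day) and was homozygous for a floxed Smchd1 allele, which Cre recombinase would remove in part by joining its loxP sites. The labels give lines 1, 2 and 3 as female and lines 5 and 7 as male. Cells of each line that had received neither the Cre retrovirus nor puromycin served as the controls of the series, and only those cells are described here. The series design text calls the controls del/fl and all lines female, and the sample labels were followed instead. The labels do not say how many cells each line was founded from. The n is 5 libraries throughout, 1 per line, and no test between groups was run because the libraries form 1 group.

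Neural stem cells of the embryonic forebrain are radial glia, which line the ventricles, divide there and produce neurons first and glia later. In culture they are kept dividing with growth factors, and they express intermediate filaments such as nestin together with transcription factors of the Sox, Hes and Pax families. Their place of origin along the neural tube is recorded by regional transcription factors: Emx2 and Pax6 mark the dorsal telencephalon, Olig2, Gsx2 and the Dlx genes the ventral telencephalon, and Hox genes mark the hindbrain and spinal cord.

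Levels are given as log2 of reads per M reads (log2 RPM, with M for 1e+06), so that 0 means 1 RPM. The reads behind them numbered 24.1 M in fl/fl 2 and 104.9 M to 116.6 M in the other 4 libraries. Reads summed over the rows of the table came to 12.9 M in fl/fl 2 and to 36.5 M to 44.9 M in the others. These sums were 53.3% and 34.8% to 38.9% of all reads. A read in overlapping rows can enter the sum more than 1 time, so the percentages are not shares of distinct reads. Levels are per M of all reads behind them, so the larger sum relative to all reads enters every level of fl/fl 2. How much of its difference from the other libraries comes from that ratio was not tested. Expressed autosomal coding genes were put in 4 equal groups by level. The median difference of fl/fl 2 from the mean of the other 4 libraries was -0.06 log2 RPM in the lowest group and 0.57 in the highest. Abundant genes therefore read higher in fl/fl 2 by an amount that grew with their level, as the plot of each library against the other 4 shows. In 4 groups by the share of the gene span that is exon, the same difference was 0.28 to 0.33. Correlation across rows (rows are not independent replicates) lay between 0.943 and 0.992 for the 10 pairs of libraries. In the sample descriptions the library names of fl/fl 2, 3 and 5 carry the prefix RNA- and those of fl/fl 1 and 7 do not. What the prefix stands for is not given in the sources used here.

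**Figure D1:**
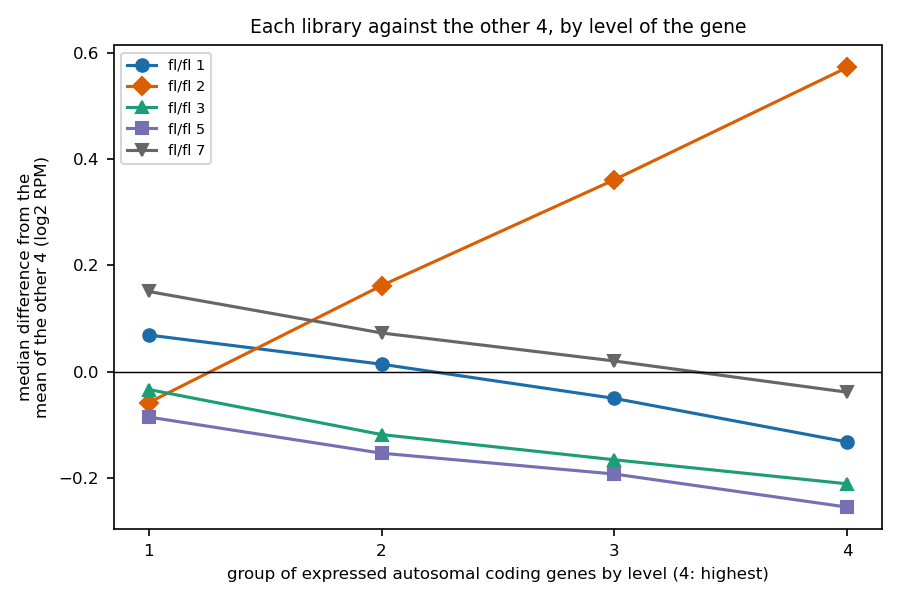
Median difference of each fl/fl library from the mean of the other 4 libraries (y axis, log2 RPM) in 4 equal groups of expressed autosomal protein-coding genes ordered by their level in those other libraries (x axis, group 4 highest). Points are medians over 2877 genes, and fl/fl 2 climbs from -0.06 to 0.57. The other 4 libraries go down with level, in part because the mean each is set against contains fl/fl 2.

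A row was called expressed at 1 RPM or more in each of the 5 libraries and silent at 3 reads or fewer in each. By these rules 12983 of 25965 rows were expressed, 6532 (25.2%) were silent, of which 4371 had no read in any library, and 6450 lay between. Among protein-coding rows 57.2% were expressed and 20.9% silent, against 6.30% and 59.0% of lincRNA rows. The 3 reads behind the silent call are 0.124 RPM in fl/fl 2 and 0.0257 to 0.0286 RPM in the others, so silence was seen less finely in fl/fl 2. These limits cover counting error only. The 13 mitochondrial rows were listed at 0 reads in all 5 libraries, so nothing can be said of mitochondrial RNA. The most abundant rows took a small share of the listed reads: the top 10 held 1.19% ± 0.0668 (SD, n = 5), the top 100 held 5.14% ± 0.562 and the top 1000 held 27.3% ± 2.24. Listed reads are the sums over rows given above, in which reads shared by overlapping rows can count for each row.

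The floxed gene itself, Smchd1 (mm10 chr17:71344489-71475343), a chromatin silencing protein related to the SMC proteins, was expressed in each culture. Its levels were 6.36, 6.81, 6.16, 6.25 and 6.37 log2 RPM in fl/fl 1, 2, 3, 5 and 7, a mean of 6.39 ± 0.25 (SD, n = 5). The 5 values lay within 1 log2 unit, and the highest was in fl/fl 2. The value is for the whole gene row, so the level does not show which exons were present.

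All 23 listed markers of neural stem cells and radial glia were expressed, with a median level of 5.25 log2 RPM. The list was chosen with earlier results of these data known, so this count is no independent check of the label. Over all rows the median was 0.57 log2 RPM, and 57.2% of protein-coding rows were expressed. Rows of 12 of the 23 overlap other rows, and the 11 that overlap none were all expressed. Nes, the intermediate filament nestin, was at 7.30, 8.45, 7.25, 7.25 and 7.33 log2 RPM in fl/fl 1, 2, 3, 5 and 7. Vim, the filament vimentin, was at 6.53, 8.02, 6.51, 6.51 and 6.53. For both filaments 4 cultures lay close together and fl/fl 2 stood more than 1 log2 unit above them. Sox2, a transcription factor that keeps neural progenitors undifferentiated, was at 5.47, 6.46, 5.34, 5.28 and 5.55, though its row lies inside Sox2ot and shares its reads. Fabp7, the brain lipid binding protein of radial glia, was at 4.98, 6.44, 4.85, 4.98 and 5.01. Slc1a3, the glutamate transporter GLAST, was at 6.90, 8.03, 6.79, 6.85 and 6.90. All 3 again put fl/fl 2 on top with the other 4 close together, and without fl/fl 2 the mean of Fabp7 moved from 5.25 to 4.95 and that of Slc1a3 from 7.09 to 6.86.

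By log2 RPM, not divided by length, the lowest member of the stem cell list was Hes5, a repressor that Notch signalling switches on. It was at 2.70, 2.23, 2.33, 1.83 and 3.57 log2 RPM. Its value in fl/fl 7 was the highest and that in fl/fl 5 the lowest, a spread (SD 0.66) that did not follow fl/fl 2. Hes1, the related Notch target, was higher at 4.73, 5.42, 4.38, 4.68 and 4.65. Among the markers whose rows overlap no other, Fabp7 at 4.93 and Nes at 4.84 log2 RPM per kb of exon were the most abundant. Tnc, a matrix protein, read 5.59, but its row overlaps 8030451A03Rik and shares reads with it. Per kb of exon Prom1, the membrane protein prominin, closed the list at 0.82, and Hes5 stood above it at 2.08. The rows of both overlap others.

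The cultures carried the transcripts of dividing cells. All 18 proliferation genes were expressed, against 57.2% of all protein-coding rows. Their median was 5.78 log2 RPM, with library medians between 5.48 and 6.25. Mki67, the proliferation antigen Ki-67, was at 6.58, 6.91, 6.55, 6.62 and 6.73 log2 RPM, a narrow band. Top2a, the topoisomerase of dividing cells, was at 6.95, 8.05, 6.79, 6.84 and 7.01. The cyclin D genes Ccnd1 and Ccnd2 had mean levels of 7.15 ± 0.57 and 7.00 ± 0.48 (SD, n = 5). All 9 inhibitors of the cell cycle were expressed as well, among them Cdkn1a (p21) at 6.01 ± 0.53 and Cdkn2a, the Ink4a/Arf locus, at 3.70 ± 0.28. Cdkn1c was the lowest of these at 1.97, 1.69, 1.92, 1.48 and 2.44 log2 RPM, highest in fl/fl 7.

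Ranking genes by abundance depended on the length by which reads were divided, and on overlap between rows. In 1387 pairs of rows where one span lies within another, the inner row never held more reads than the outer one. Counting over whole gene spans was inferred from this, and 7479 rows (28.8%) overlap another row. Divided by exon length, 19 of the top 20 protein-coding rows overlapped other rows and share their reads. The first was the predicted gene Gm20388, at 8.80 log2 RPM per kb of exon, whose span takes in Ankrd11 and the neuronal tubulin Tubb3. Others were Atp5o, whose span overlaps Itsn1, and Epo, the erythropoietin gene, which overlaps Gnb2. Fgfr2, an FGF receptor, ranked 32 with 5.93 log2 RPM per kb, but its listed span of 2961 kb takes in other genes, and rows nested in it hold 79.6% of its reads. These ranks are thus no measure of the named genes.

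A second view kept the 63 protein-coding rows that stood in the top 250 whether reads were divided by exon length or by span. The genes named from them were chosen after their values were seen. Eef2, the elongation factor that moves the ribosome along, stood at 5.14 log2 RPM per kb of exon, Hsp90ab1, a chaperone, at 5.07, Tubb2a, a beta tubulin, at 5.07, and Actb, beta actin, at 4.82. Ckb, the brain creatine kinase, stood at 4.87. Scd2, which desaturates fatty acids, stood at 5.18, ahead of all others, and Insig1, a sterol sensor of the endoplasmic reticulum, at 4.88. Vegfa, the vascular growth factor, stood at 5.11 and Igfbp3, a binding protein for insulin-like growth factors, at 5.05. Scd2 was at 7.31, 8.92, 7.26, 7.30 and 7.33 log2 RPM in fl/fl 1, 2, 3, 5 and 7, and Vegfa at 7.13, 7.89, 6.95, 7.00 and 7.08. Lineage genes in this set were Nes, Fabp7, Vim, Olig1, Olig2 and Bcan, the matrix proteoglycan brevican, at 6.73, 7.21, 6.62, 6.56 and 6.79 log2 RPM.

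Among 261 members of the transcription factor families examined, 74 were expressed and 111 silent. Of all protein-coding rows 57.2% were expressed and 20.9% silent. Per kb of exon the first 10 were Sox2 (4.58 log2 RPM per kb), Klf6, Id3, Foxk2, Id1, Sox4, Klf4, Klf10, Hes1 and Sox9 (3.65). This order has the limits of length and overlap given above. The row of Sox2 overlaps Sox2ot, and Foxk2 ranked 691 among rows per kb of exon but 3776 per kb of span. The Id proteins block differentiation factors of the basic helix-loop-helix class, and all 4 were expressed. All 4 nuclear factor I genes and all 5 Zic genes, which act in the development of the forebrain and its glia, were expressed too. The rows of all 4 nuclear factor I genes and of 2 of the 5 Zic genes overlap other rows. Nfib was at 6.55, 7.01, 6.48, 6.51 and 6.66 log2 RPM. Zic5 was at 3.89, 4.07, 3.28, 3.92 and 3.42, lower in fl/fl 3 and 7 than in the other 3 cultures. Of 19 Sox genes 13 were expressed, and of 17 Kruppel-like factors 13.

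Regional regulators were expressed in part. Of 8 regulators of the telencephalon as a whole 5 were expressed (62.5%, near the 57.2% of all protein-coding rows), among them Nr2f1, Lhx2, Otx1 and Sp8. Rows of 4 of the 8 overlap others, those of Nr2f1 and Lhx2 among them. Lhx2, a LIM homeobox factor of the cortex and eye field, was at 4.59, 4.62, 4.04, 4.34 and 4.25 log2 RPM, similar levels in all 5 cultures. Otx2 and Six3, head homeobox genes, were not: Six3 was at 4.04 log2 RPM in fl/fl 5 with 1720 reads and at or under -4.54 in the other 4. Otx2 was at 1.23 in fl/fl 5 with 246 reads, at -2.87 in fl/fl 1 and at 0 reads in fl/fl 2, 3 and 7.

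The dorsal telencephalon list held 4 expressed genes of 15 (26.7%), under the 57.2% of all protein-coding rows. Rows of 3 of the 15 overlap others, and the row of Pax6 overlaps another. Emx2, a homeobox factor of cortical progenitors, was at 4.07, 4.71, 3.96, 4.00 and 4.05 log2 RPM, and Pax6 at 4.69, 4.64, 4.39, 4.49 and 4.72. Emx2 was highest in fl/fl 2 and Pax6 was not, and the genes that mark the next steps toward cortical neurons were lower than both. Eomes (Tbr2), of intermediate progenitors, was at -0.24, 0.16, -0.09, -0.34 and -0.44. Tbr1, of early cortical neurons, was at -2.70, -2.27, -2.39, -2.91 and -2.53, Neurog2 held at most 10 reads in any library, and Neurog1 held 0 reads in all 5. Emx1, the partner of Emx2 in the cortex, held at most 24 reads.

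The ventral list held 7 expressed genes of 16 (43.8%), also under that 57.2%. Olig2, a basic helix-loop-helix factor of ventral progenitors and the oligodendrocyte lineage, was at 5.65, 6.69, 5.65, 5.59 and 5.70 log2 RPM, and Olig1, its neighbour, at 5.62, 6.78, 5.52, 5.42 and 5.72. Several other ventral genes were far lower. Gsx2, a homeobox factor of ventral progenitors, was at 0.44, -0.07, -0.59, 0.29 and -0.19, Dlx2 at -1.70, -2.59, -1.87, -0.54 and -2.04, and Nkx2-1, of the medial ganglionic eminence, held at most 2 reads. In bulk RNA, fewer cells of a type and less RNA per cell cannot be told apart, and neither can 1 mixed cell state from a mixture of cells.

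Regulators of other regions were mostly low, whereas 57.2% of all protein-coding rows were expressed and 20.9% silent. Of 20 genes of the diencephalon, hypothalamus and eye 3 were expressed, of 13 of the midbrain and isthmus 1, and of 18 of the hindbrain and spinal cord 6, with 10 silent. The 1 midbrain gene was Pitx3, at 0.70 ± 0.21 log2 RPM (SD, n = 5), in a row that overlaps Elovl3. Among the posterior genes that were expressed, Egr2 (Krox20), a hindbrain segment factor that growth factors also induce, was at 4.76, 4.91, 4.79, 4.54 and 5.09. Dbx2, an interneuron progenitor factor of the spinal cord, was at 4.23, 4.52, 3.99, 4.19 and 4.22. Nkx2-2, a hedgehog-responsive homeobox gene, was at 4.59, 4.89, 4.49, 4.68 and 4.60, in a row that overlaps its antisense partner. All 3 varied little between cultures. Atoh1, Olig3 and the Cdx genes were silent.

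**Figure D2:**
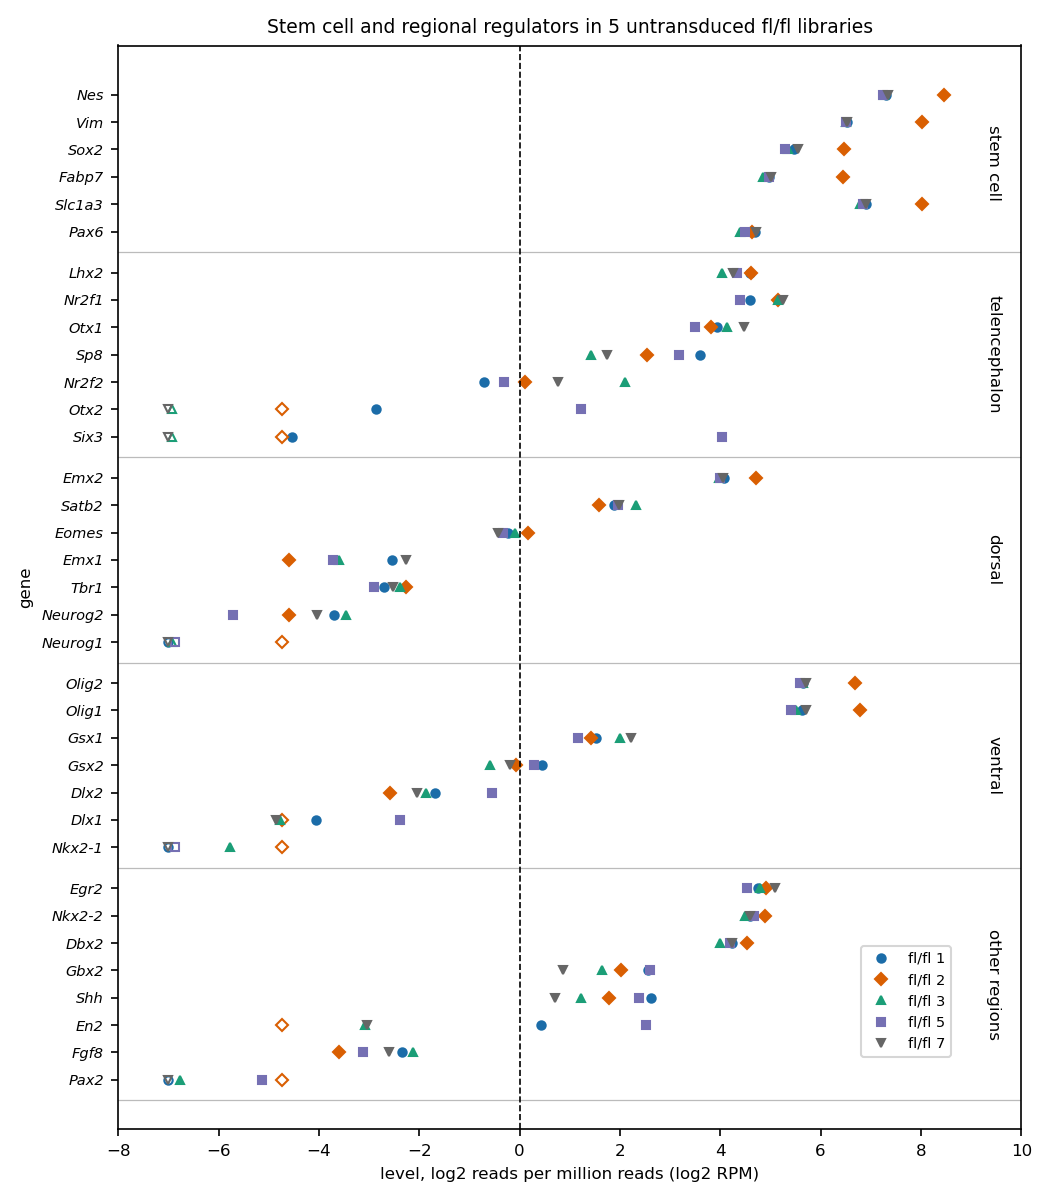
Levels (x axis, log2 RPM) of 35 stem cell and regional regulators (y axis) in the 5 fl/fl libraries, 1 point per library and an open symbol for 0 reads. The dashed line marks 1 RPM, stem cell genes lie to its right in all 5 libraries, and Six3 lies to its right in fl/fl 5 alone.

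None of the 39 Hox genes was expressed and 35 were silent (89.7%, against 20.9% of all protein-coding rows). Hox genes give cells of the hindbrain, spinal cord and trunk their position. All 39 together held 5 to 26 reads per library.

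Of 18 genes of differentiated neurons 12 were expressed (66.7%, against 57.2% of all protein-coding rows), 8 of the 18 in rows that overlap others. The highest was Map2, a microtubule protein of dendrites, at 7.41, 8.47, 7.55, 7.46 and 7.56 log2 RPM. Tubb3 was at 2.30 ± 0.15 in a row that lies within Gm20388, and Dcx, the doublecortin of migrating neurons, at 0.82, 1.31, 1.62, 0.58 and 1.97. Slc17a6, the vesicular glutamate transporter VGLUT2, held at most 2 reads and Stmn2, a neuronal growth protein, at most 22. Gad1, which makes GABA, was at 4.47, 3.62, 3.42, 4.10 and 3.17, highest in fl/fl 1 and 5.

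Of 14 astrocyte genes 11 were expressed (78.6%, against 57.2% of all protein-coding rows), with a median of 4.77 log2 RPM. Rows of 4 of the 14 overlap others, that of Glul among them. Several are shared with radial glia. Aldoc, a glycolytic enzyme, was at 5.29 ± 0.34 and Glul, glutamine synthetase, at 5.36 ± 0.34 (SD, n = 5). Gfap, Aqp4 and Gjb6 were lower than these. Gja1, at 4.79 log2 RPM, and Apoe, at 4.75, lay near the median of the list. Gfap, the astrocyte filament, was at 1.92, 0.62, 1.44, 0.48 and 1.96, lowest in fl/fl 2 and 5, and Aqp4, the water channel of astrocyte end feet, at 0.72, -0.07, 0.37, -0.24 and 1.03, in the same order of high and low cultures. Gjb6 (connexin 30) held at most 2 reads.

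In the oligodendrocyte lineage 10 of 15 genes were expressed (66.7%, against 57.2% of all protein-coding rows). The early genes Cspg4 (NG2) and Pdgfra, a PDGF receptor of oligodendrocyte precursors, were at 5.69 ± 0.34 and 4.32 ± 0.61 log2 RPM (SD, n = 5). Sox10, which oligodendrocytes require, was at -0.08, -1.01, 0.12, -1.36 and 0.43, under 1 RPM in 3 of 5 cultures. Rows of 5 of the 15 overlap others, that of Cnp among them. Cnp, another gene of the list, was at 5.89, 6.64, 5.86, 5.74 and 6.06 log2 RPM. The myelin genes Mag and Mog held at most 1 and at most 38 reads, while Mbp was at 1.19, 3.21, 2.04, 1.89 and 1.52. Mbp was highest in fl/fl 2.

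Genes of other cell types ranged from 0 reads to levels well above 1 RPM. Beside the counts that follow, 57.2% of all protein-coding rows were expressed and 20.9% silent. Of 15 microglia and leukocyte genes, Tyrobp, C1qa and Tmem119 held 0 reads in all 5 libraries and Ptprc (CD45) at most 7. Only 4 of the 15 were expressed, and 3 of these 4 lie in rows that overlap others. The row of Cx3cr1, a microglial chemokine receptor, was at 6.62, 6.85, 6.62, 6.38 and 6.80, but it spans 5 other rows including Wdr48, and rows nested in it hold 52.9% of its reads. P2ry12 lies within Med12l and Csf1r overlaps Hmgxb3. Cd68, a lysosomal protein, was the exception at 2.36 ± 0.32. Of 9 endothelial genes only Kdr was expressed, at 0.97 ± 0.39, and none was silent: the other 8 held at most 8 reads (Cdh5, Cldn5) to at most 180 (Esam) in any library. Of 14 fibroblast and mesenchyme genes 5 were expressed. Prrx1, a mesenchymal homeobox gene in a row that overlaps another, was at 6.62 ± 0.43 and Acta2, smooth muscle actin, at 5.17 ± 0.39. The collagen Col1a1 was at -0.94, -2.01, -0.49, -0.76 and 0.06, and Lum held 0 reads. Of 8 ependymal genes only Foxj1 was expressed, at 3.61 ± 0.26. Neural crest had 2 of 10, Ets1 at 6.36 ± 0.41 and Mitf at 4.59 ± 0.20 (SD, n = 5), erythroid cells 2 of 7 and other germ layers 2 of 15 expressed.

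Pluripotency genes were mostly silent. Pou5f1 (Oct4), the defining factor of pluripotent cells, held 0 reads in all 5 libraries. In all, 8 of 13 listed genes were silent, beside 20.9% of all protein-coding rows. The 2 that were expressed were Klf4, a factor also found in many cycling cells, at 5.44, 6.21, 5.44, 5.21 and 5.54 log2 RPM, and Esrrb, an orphan nuclear receptor, at 2.97, 3.00, 2.30, 3.06 and 2.66. Neither overlaps another row.

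Of 21 growth factor receptors 17 were expressed (81.0%, against 57.2% of all protein-coding rows). Their median was 5.08 log2 RPM, or 1.65 log2 RPM per kb of exon. Rows of 8 of the 21 overlap others. Egfr, the EGF receptor, was at 7.12, 7.71, 6.97, 7.06 and 7.19, and Fgfr1 at 6.60, 6.88, 6.44, 6.38 and 6.69. Ntrk2 (TrkB), the receptor of BDNF, was at 6.82 ± 0.29, and Lifr and Il6st, which together receive LIF, were at 5.14 ± 0.15 and 5.52 ± 0.16 (SD, n = 5). Fgfr4 and Erbb3 were below 1 RPM in all 5 cultures.

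Of 25 genes of the Notch, hedgehog and BMP pathways 19 were expressed (76%, against 57.2% of all protein-coding rows). Notch1, a receptor, was at 6.50, 6.30, 6.32, 6.34 and 6.62, and its ligands Jag1 and Dll1 at 5.79 ± 0.23 and 4.61 ± 0.13. The hedgehog receptors Ptch1 and Smo were at 5.21 ± 0.14 and 5.50 ± 0.13, and the repressor Gli3 at 4.99 ± 0.18. Gli1, a direct target that reports hedgehog signalling, was at -0.84, -2.59, -1.73, -0.56 and -1.49, below 1 RPM in all 5, in a row that overlaps Arhgap9. The BMP receptors Bmpr1a and Bmpr1b were at 6.34 ± 0.40 and 5.73 ± 0.24, and the BMP targets Id1 and Id3 at 4.29 ± 0.42 and 5.02 ± 0.50.

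Whole gene families were silent. Of the 48 families examined, 22 had more than 50 percent of their members silent, 4 had all members silent and 5 had all members expressed. Of all protein-coding rows 20.9% were silent and 57.2% expressed. Olfactory receptors, the odour receptors of the nose, were silent in 1058 of 1091 genes, and 994 had no read in any library. Type 1 vomeronasal receptors, which sense pheromones, were silent in 202 of 205, bitter taste receptors in 32 of 35 and trace amine receptors in 15 of 15. The sensory and orphan receptor families together were silent in 1419 of 1489 members. Keratin-associated proteins of hair (51 of 51), alpha interferons (13 of 13) and caseins of milk (5 of 5) were silent throughout. The 2 expressed olfactory receptors were Olfr287, at 1.22 ± 0.63 log2 RPM, and Olfr1318, at 0.47 ± 0.39.

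Families at the other end serve every cell: all 36 complex I subunits of the respiratory chain encoded in the nucleus, all 8 chaperonin subunits, 39 of 43 proteasome subunits and 83 of 87 ribosomal proteins were expressed. Families of excitable membranes differed. Of 18 ionotropic glutamate receptors 16 were expressed (88.9%), of 40 voltage-gated potassium channels 23 (57.5%) and of 19 GABA-A receptor subunits 4 (21.1%), beside 57.2% of all protein-coding rows. Developmental factors divided within families: 1 of 9 Pax genes (Pax6), 1 of 12 LIM homeobox genes (Lhx2), 2 of 14 Nkx genes and 0 of 6 Dlx genes were expressed. Silence was incomplete in several of these, since 6 Pax genes and 8 LIM homeobox genes held reads without reaching 1 RPM in each library.

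**Figure D3:**
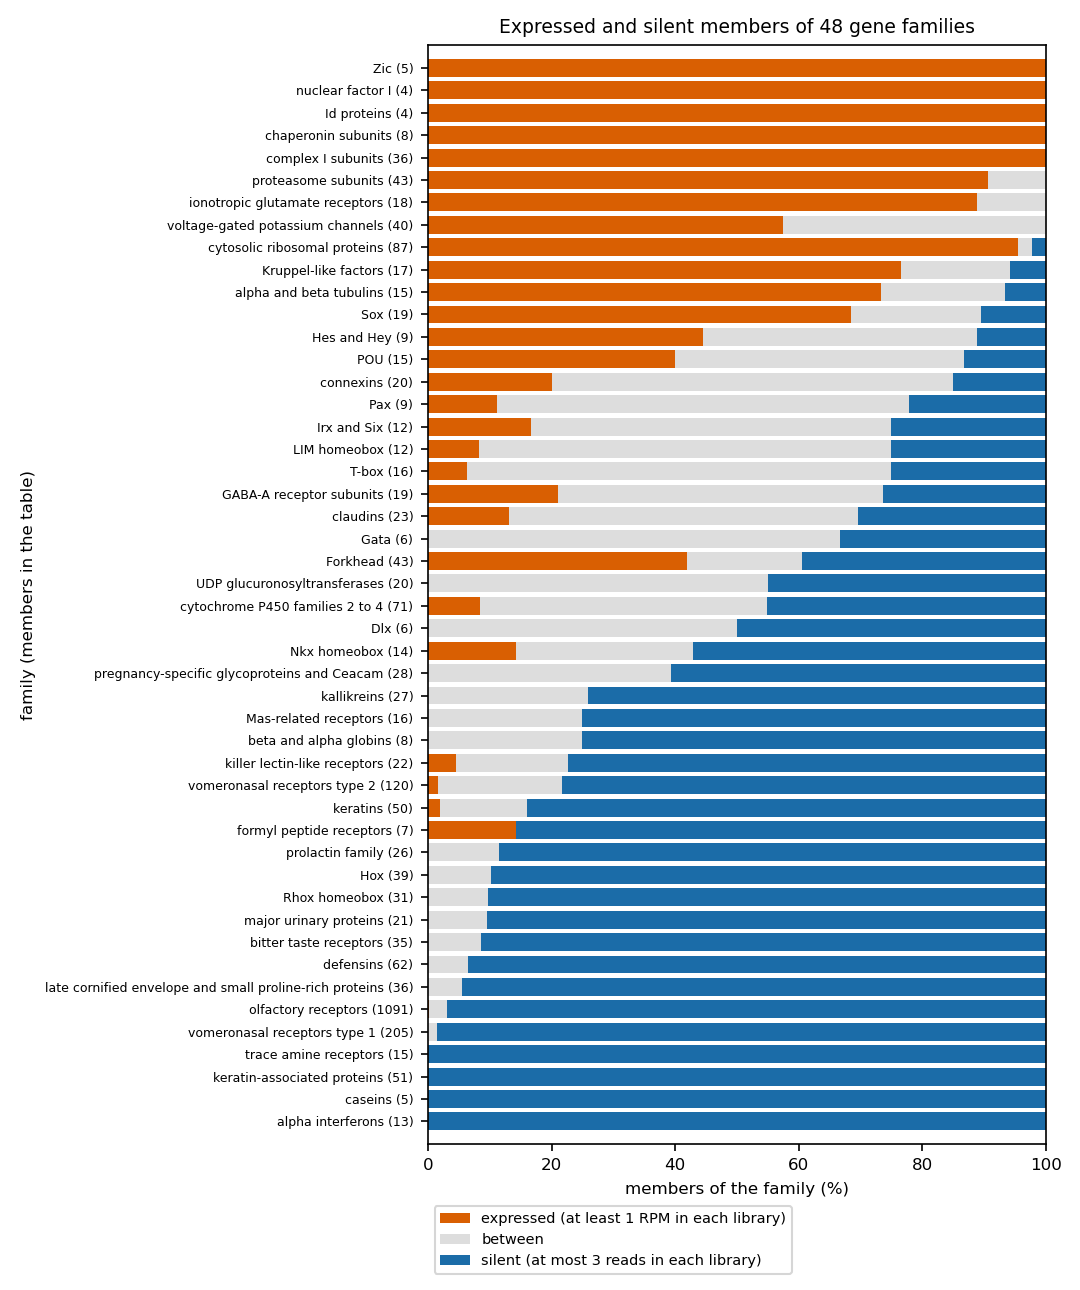
Share of members (x axis, percent) that were expressed, between or silent in the 5 fl/fl libraries for 48 gene families (y axis, number of members in brackets), ordered by the share silent. Complex I and chaperonin genes are expressed throughout, and 1058 of 1091 olfactory receptors are silent.

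Expressed and silent genes differed in the sequence before their start sites. Promoters rich in the dinucleotide CG (CpG) are typical of housekeeping and developmental genes and lie in CpG islands, while CpG-poor promoters are typical of tissue-restricted genes. A RefSeq promoter (build GRCm38.p6) was matched to 14902 of 20859 protein-coding rows (71.4%), and the 250 bases before the start site were read. Those of 6 genes are shown because they represent the classes, with CG in capitals and each written 5′ to 3′ on the gene's strand. Olig2 (chr16:91225300-91225549, plus strand) and Emx2 (chr19:59458440-59458689, plus strand) are expressed and CpG-rich, with 22 and 24 CpG, and Fabp7 (chr10:57784673-57784922, plus strand) is expressed with 4. Hoxd13 (chr2:74667975-74668224, plus strand) and Neurog1 (chr13:56252181-56252430, minus strand) are silent with 31 and 29 CpG, and the olfactory receptor Olfr16 (chr1:172956518-172956767, plus strand) is silent with 2.
Olig2: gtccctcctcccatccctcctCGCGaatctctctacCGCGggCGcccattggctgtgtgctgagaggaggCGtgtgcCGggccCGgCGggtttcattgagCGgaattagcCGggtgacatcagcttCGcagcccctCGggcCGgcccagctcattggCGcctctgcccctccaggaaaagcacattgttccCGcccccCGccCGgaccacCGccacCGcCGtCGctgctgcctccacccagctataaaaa
Emx2: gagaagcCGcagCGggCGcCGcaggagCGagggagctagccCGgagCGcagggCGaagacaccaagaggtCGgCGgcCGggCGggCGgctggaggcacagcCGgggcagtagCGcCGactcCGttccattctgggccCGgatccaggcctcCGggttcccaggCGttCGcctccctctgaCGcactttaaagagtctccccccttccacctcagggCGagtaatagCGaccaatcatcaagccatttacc
Fabp7: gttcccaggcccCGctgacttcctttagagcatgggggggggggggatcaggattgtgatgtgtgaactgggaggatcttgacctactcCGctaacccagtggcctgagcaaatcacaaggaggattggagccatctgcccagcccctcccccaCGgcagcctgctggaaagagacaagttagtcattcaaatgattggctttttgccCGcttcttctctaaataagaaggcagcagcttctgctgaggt
Hoxd13: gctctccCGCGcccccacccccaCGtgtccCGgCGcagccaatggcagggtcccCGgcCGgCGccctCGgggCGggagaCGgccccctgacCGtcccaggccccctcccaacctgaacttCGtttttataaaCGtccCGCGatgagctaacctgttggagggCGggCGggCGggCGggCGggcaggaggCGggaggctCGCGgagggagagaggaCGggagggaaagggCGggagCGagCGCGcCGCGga
Neurog1: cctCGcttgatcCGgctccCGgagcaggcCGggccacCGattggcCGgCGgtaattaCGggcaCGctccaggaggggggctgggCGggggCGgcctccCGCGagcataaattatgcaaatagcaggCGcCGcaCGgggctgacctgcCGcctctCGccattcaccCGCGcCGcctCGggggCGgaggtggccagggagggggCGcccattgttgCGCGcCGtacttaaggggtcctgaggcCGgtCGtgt
Olfr16: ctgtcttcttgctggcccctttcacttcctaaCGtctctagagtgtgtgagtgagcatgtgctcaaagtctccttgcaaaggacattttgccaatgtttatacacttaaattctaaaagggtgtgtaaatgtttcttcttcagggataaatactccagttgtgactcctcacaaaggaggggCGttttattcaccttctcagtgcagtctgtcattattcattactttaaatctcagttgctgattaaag

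A promoter was called CpG-rich where CpG stood at 0.6 or more of the number expected from its C and G content. By this measure 73.2% of 8778 expressed genes (95% Wilson interval 72.3% to 74.1%), 23.9% of 3003 between and 4.81% of 3121 silent genes (4.11% to 5.61%) were CpG-rich, against 48.9% of all. The intervals cover counting error only, and genes are not independent. The median GC content was 60.8% in expressed and 42.4% in silent genes. The letters TATAAA, searched on both strands as a match and not as a bound site, occurred in 5.58% of expressed, 29.7% of silent and 11.9% of all promoters. These letters are all A or T, and the classes differ in GC content as given. The share expected from base composition was not computed. Within the expressed genes the CpG-rich share went up with level per kb of exon, from 58.2% in the lowest of 5 equal groups to 81.6% in the highest. Levels per kb of exon carry the limits of length and overlap given above, and the trend was not computed another way.

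Silent genes were of more than 1 kind by this measure. Silent members of the receptor families were CpG-rich in 8 of 1161 cases (0.689%), as in Olfr16 above. Silent members of the transcription factor families were CpG-rich in 29 of 67 (43.3%, 95% Wilson interval 32.1% to 55.2%), as in Hoxd13. Expressed members of those families were CpG-rich in 36 of 45 (80.0%). Neurog1, also silent and CpG-rich, is in none of the families examined and is not counted among them. The interval of the silent factors lies above that of all silent genes and below that of all expressed genes. Expressed genes can also lack CpG, as Fabp7 shows, and Vim had 8 CpG before its start, an observed over expected ratio of 0.376.

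**Figure D4:**
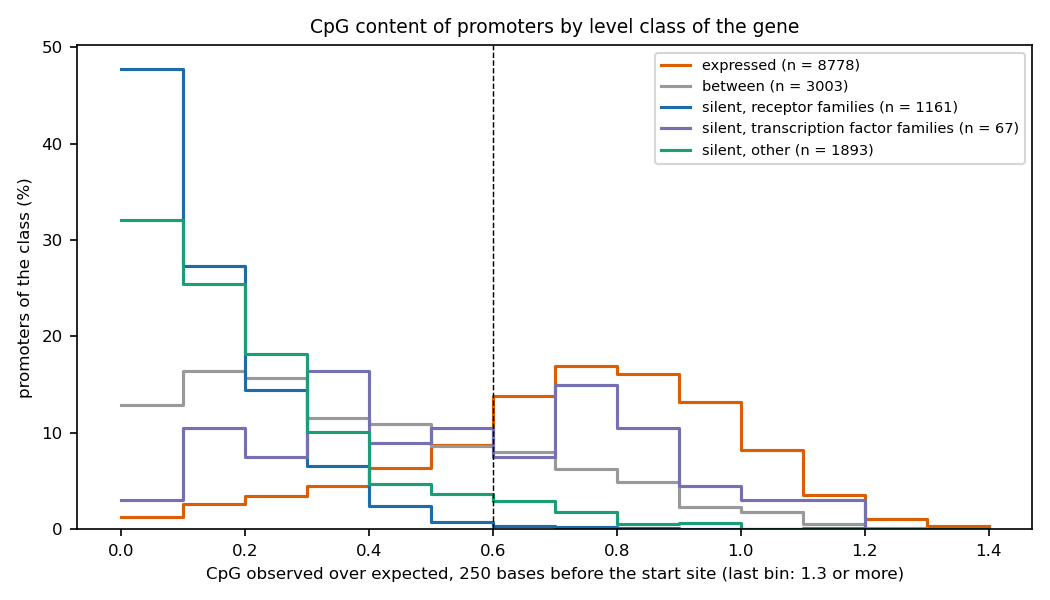
Distribution of the CpG observed over expected ratio in the 250 bases before the start site (x axis) as a share of the promoters of each class (y axis, percent), for protein-coding genes with a RefSeq promoter. The dashed line is the 0.6 threshold: 73.2% of expressed genes lie to its right, 43.3% of silent transcription factor family members and 0.689% of silent receptor family members.

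Differences between the 5 lines were small for most genes and large for few. Over 11508 expressed autosomal coding rows the median SD was 0.23 log2 units, and without fl/fl 2 it was 0.12. An SD of at least 1 was found in 44 rows (0.382%). In all 44 the 3 libraries with the RNA- prefix (fl/fl 2, 3 and 5) lay above the 2 without it, an order seen in 6.62% of all these rows. The largest was Srp54b, a copy of the signal recognition particle gene Srp54, at 0.54, 5.76, 4.90, 4.91 and 0.76 log2 RPM in fl/fl 1, 2, 3, 5 and 7. Myo3a, a myosin of hair cells, was at 0.76, 5.46, 3.79, 3.77 and 0.82, and Entpd1, an enzyme that splits extracellular ATP (CD39), at 2.19, 5.70, 4.87, 4.84 and 2.55. Tuba1c, an alpha tubulin, was at 2.48, 5.84, 4.64, 4.67 and 2.44. In each of these the values form a low pair and a high trio that do not overlap.

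The 12 genes of largest spread fell into 2 kinds by sequence. A processed pseudogene lies inside 8 of the 12, against 10.2% of all the rows, and at most 4.64% of the 50-base words of their transcripts also occur in transcripts of other genes. The words come from transcripts alone and do not cover the rest of the span. With counting over whole spans, the levels of these 8 rows, Myo3a and Entpd1 among them, may include reads of the pseudogene. Pde6a, among the 8, overlaps Gm8841, and rows nested in Pde6a hold 99.2% of its reads. The other 4 hold no such pseudogene, and the shared words were 99.8% in Srp54b, 85.7% in Amd2, 84.5% in Eno1b and 61.0% in Tuba1c. Reads from shared words cannot be assigned by sequence alone. Over all 12 the median share was 0.60%. Processed pseudogene rows themselves had a median difference of 0.53 log2 units between the libraries with and without the prefix, against -0.01 for the coding rows. The mean with the prefix includes fl/fl 2, and the difference without fl/fl 2 was not computed. The processed pseudogene Gm6863 was at 3.97, 5.64, 3.93, 3.91 and 3.98 log2 RPM, high in fl/fl 2 alone. Another, Cbx3-ps6, was at 2.24, 6.06, 4.51, 4.63 and 2.26, high in fl/fl 2, 3 and 5. The part of read assignment in these differences was not tested.

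Among the regional and lineage genes some differences followed the prefix and others did not. Sp9, a zinc finger factor of the ventral forebrain whose row overlaps Cir1, was at 0.46, 1.98, 1.94, 1.85 and 0.41 log2 RPM. Mbp, given above, has a processed pseudogene inside its row, whose part in the level was not tested. Both were higher in all 3 libraries with the prefix than in the 2 without. Sp8, a zinc finger factor of the forebrain, was at 3.59, 2.55, 1.42, 3.18 and 1.73 log2 RPM, with no such split and the largest SD (0.92) among the 151 expressed autosomal list genes, whose median SD was 0.31. Shh, the hedgehog ligand sonic hedgehog, was at 2.62, 1.78, 1.23, 2.37 and 0.71. Gbx2, a homeobox gene of the midbrain-hindbrain border and thalamus, was at 2.57, 2.02, 1.64, 2.60 and 0.86, in a row that overlaps D130058E05Rik and has 48.3% of its reads in nested rows. These 3 regulators and Gad1 were highest in fl/fl 1 and 5 and lowest in fl/fl 3 and 7, with fl/fl 2 between. En2, a homeobox gene of the midbrain, was at 0.42 and 2.52 in fl/fl 1 and 5 and at or under -3.04 in the other 3. Pdgfra ran the other way, at 3.80, 4.31, 4.69, 3.67 and 5.12, lowest in fl/fl 1 and 5, as did Sparcl1, a matrix protein of astrocytes, at 4.86, 5.75, 5.68, 4.83 and 5.80. Nr2f2 (COUP-TFII), of caudal and ventral forebrain, was at -0.72, 0.11, 2.10, -0.30 and 0.76, also lowest in fl/fl 1 and 5. With 1 library per line, a difference between lines and a difference between libraries cannot be told apart.

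**Figure D5:**
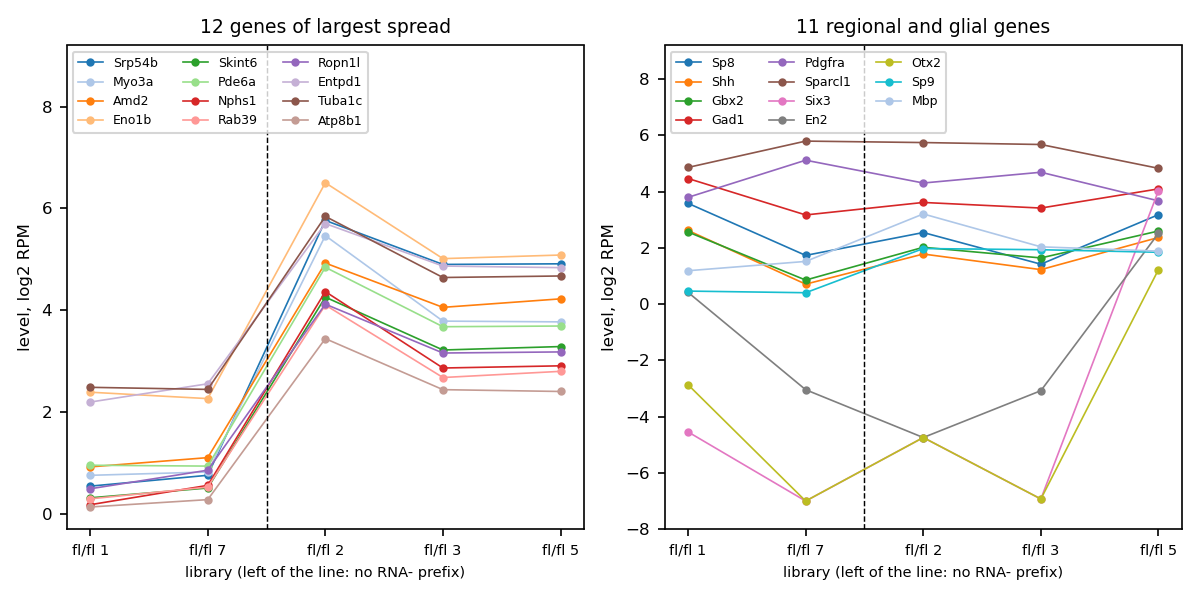
Levels (y axis, log2 RPM) in the 5 fl/fl libraries (x axis, libraries without the RNA- prefix left of the dashed line) of the 12 genes of largest SD (left) and of 11 regional and glial genes (right). Each line joins the values of 1 gene and implies no order: at left all 12 genes are higher in fl/fl 2, 3 and 5 than in fl/fl 1 and 7, and at right Sp9 and Mbp do the same while Sp8, Shh, Gbx2 and Gad1 are highest in fl/fl 1 and 5.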

How the data were processed

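RNA of the 9 cultures was sequenced, and the 5 fl/fl libraries were used here. Build mm10 and the tools TopHat2 2.0.12, bcl2fastq and edgeR 3.8.2 are listed in the submitters' processing notes. How reads were counted, with which annotation and strand, is not given in the sources used here. Values deposited by the authors are log2 RPM per gene row, and counting over whole gene spans is inferred here from nested rows. In each library at least 99.996% of values gave whole reads (within 0.05) over 1 common total, with 0 reads entered as 0.9, so read numbers were recovered. Rows were matched by symbol and place to GENCODE release M21 (24587 rows, 94.7%) for exon lengths and class. Levels were averaged on the log2 scale, with no added count and no filter unless stated. Promoters came from RefSeq (GRCm38.p6).

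The lists (22), families (48) and members were chosen with earlier results of these data known. The genes named are the top rows by level per kb of exon, list members, the leading and the silent family members, the 10 leading transcription factors, the 12 most variable genes and Smchd1. Zic5, Ercc6, Maml1 and the genes high by both lengths were chosen after their values were seen. Some list and family members are counted but not reported by name here. Recovery of reads was tested on simulated data. Alternatives covered thresholds, lengths, scaling and leaving out each library. Python 3.11.15, pandas 2.3.3 and numpy 2.4.6 were used.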

Additional observations from a re-analysis of the deposited data

Results flagged for a closer look

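For each of 170 values over the 5 libraries, the gap between the highest or lowest library and its nearest neighbour was divided by the whole range, and 52 values exceeded Dixon's 95% critical value of 0.71. Chance gives about 1 in 20. A value that rested on 3 reads or fewer in the library concerned was not counted for single genes. Of the 52 values, 42 were levels of genes: fl/fl 2 was highest in 40 and lowest in 1, and fl/fl 5 highest in 1. Levels are per M of all reads, and the sum over rows was largest relative to all reads in fl/fl 2. The levels of genes in fl/fl 2 are thus not independent of that ratio or of each other.

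The library measures set apart were all those of fl/fl 2. It had 24.1 M reads in all and 12.9 M summed over listed rows, a sum of 53.3% of all reads. Its top 10, 100 and 1000 rows held 1.31%, 6.14% and 31.3% of the listed reads. Its list medians were set apart for the stem cell list (5.88 log2 RPM), the oligodendrocyte list (3.21) and the pluripotency list (-4.74, the level of 0 reads at its depth). The erythroid list was set apart in fl/fl 3, at -3.78 log2 RPM.

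Levels of single genes that lay above the other 4 libraries in fl/fl 2 are given in log2 RPM. Among stem cell and cell cycle genes these were Nes 8.45, Vim 8.02, Sox2 6.46, Fabp7 6.44, Slc1a3 8.03, Ptprz1 9.39, Tnc 9.34, Top2a 8.05, Ccnd1 8.17, Ccnd2 7.85 and Cdkn1a 6.95. Among regional, lineage and other transcription factors they were Emx2 4.71, Olig1 6.78, Olig2 6.69, Ebf1 5.70, Prrx1 7.37, Ets1 7.08, Id3 5.88, Sox4 7.19, Klf6 7.68 and Foxk2 7.10. Among receptors and structural proteins they were Map2 8.47, Tfrc 7.64, Fgfr2 9.72, Egfr 7.71, Bmpr1a 7.05, Itgb1 8.33, Actb 7.45 and Tubb2a 6.94. Among the genes of metabolism, translation and other abundant genes they were Eef2 8.11, Scd2 8.92, Vegfa 7.89, Ckb 7.50, Hsp90ab1 8.02, Igfbp3 7.80, Insig1 7.37, Hmgcs1 8.29, Fam162a 5.80, Vav3 8.57 and Selenow 5.49. The gene T (brachyury), a mesoderm factor, was lowest in fl/fl 2 at 0.99, against at least 1.83 in the others. Six3 was highest in fl/fl 5 at 4.04, and the next library stood at -4.54.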

How the results depend on the processing

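No paired analysis was possible because the 5 libraries form 1 group. Counts of expressed rows, of lists with a median above 0 log2 RPM and of families with more than 50 percent silent members stayed within 1.5 times their values in all settings but those given here. The number of silent rows was 9813 where silence meant at most -2 log2 RPM in each library. Of the top 100 rows by level per kb of exon, 8 remained with the span as length, 10 with no length and 22 among rows that overlap no other row. Among those rows the top 10, 100 and 1000 held 0.940%, 6.30% and 35.7% of the listed reads. With 0 reads as the rule, 14 families had more than 50 percent of members silent. The median SD was 0.37 without the filter on low values, and 0.12 to 0.25 when each library was left out, lowest without fl/fl 2. The CpG-rich share was 81.9% of expressed and 7.50% of silent genes at a ratio of 0.5, and 78.1% of expressed genes over 300 bases. Levels of 130 of 147 named genes moved by more than their SD when reads in listed rows were the total, 33 on the log2(RPM + 1) scale and 0 under quantile normalization. Leaving out 1 of 5 libraries cannot move a mean by its SD and says nothing here. Medians of 14 of 22 lists moved on the log2(RPM + 1) scale. The ranking by both lengths and the split by name prefix were chosen after seeing the data. Depth limits what can be said of silence: 1 read is -4.59 log2 RPM in fl/fl 2 and at most -6.71 in the others. Overlap between rows limits their levels.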

Other observations

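Steady genes were described as the counterpart of the variable ones. Among expressed autosomal coding rows, Ercc6, a DNA repair helicase, had levels of 5.07, 5.06, 5.09, 5.05 and 5.13 log2 RPM in fl/fl 1, 2, 3, 5 and 7, and Maml1, a coactivator of Notch, 5.04, 5.09, 5.06, 5.07 and 5.16. In both, fl/fl 2 lay within the range of the other 4 libraries.

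Silent genes were unevenly placed along the chromosomes. On chromosome 7, 33.8% of 1930 protein-coding rows were silent, and on chromosome 12, 10.7% of 606. Chromosome 7 holds 392 olfactory and vomeronasal receptor genes and chromosome 12 holds 0, and without those families the silent share was 18.2% on chromosome 7 and 10.7% on chromosome 12. Chromosome 14 then had the highest silent share of the autosomes, 24.0% of 817 rows.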
